A study of Mus musculus with 2 samples.

Results

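The 6 genes of the platelet-derived growth factor (PDGF) system, the ligand genes Pdgfa, Pdgfb, Pdgfc and Pdgfd and the receptor genes Pdgfra and Pdgfrb, were described in single-nucleus RNA-seq (snRNA-seq) of mouse hearts. They were chosen by symbol, and all 6 of 6 were found among the 32589 genes of the files. The hearts came from male C57BL/6 mice that were 8 weeks old when purchased, per the study's methods. Mice of the PD-1 inhibitor group received an anti-mouse PD-1 antibody intraperitoneally at 5 mg/kg on days 1 and 14 of a 28-day cycle, and control mice received PBS at those times. Each condition is 1 library, called the control and the treated library below, and the number of hearts behind a library is not given in the sources used here. No test could therefore be made, and no value below has a replicate error. Every interval is a 95% interval for counting error alone.

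PDGF ligands are secreted growth factors that act on mesenchymal cells through paired receptor tyrosine kinases. The α receptor, encoded by Pdgfra, binds the A, B and C chains, and the β receptor, encoded by Pdgfrb, binds the B and D chains. In vessels, the B chain made by endothelium is known to hold pericytes at the capillary wall, and in the heart Pdgfra is a customary label of fibroblasts. The A and B chains are cut to their active form inside the cell, whereas the C and D chains are released with a blocking domain that has to be removed outside it.

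The RefSeq promoter table (build GRCm38.p6) held 4 of the 6 genes, namely Pdgfa, Pdgfc, Pdgfd and Pdgfra. The 250 bases before the gene start are printed for Pdgfra and Pdgfd, because these are the receptor with the widest difference between its leading cell type and the next and the ligand with the most UMIs. Both strands were searched for the E-box CANNTG and for TATAAA, 2 motifs that share no site here, and matches are in capitals. Both sequences run 5′ to 3′ on the plus strand.
Pdgfra, chr5:75152001-75152250: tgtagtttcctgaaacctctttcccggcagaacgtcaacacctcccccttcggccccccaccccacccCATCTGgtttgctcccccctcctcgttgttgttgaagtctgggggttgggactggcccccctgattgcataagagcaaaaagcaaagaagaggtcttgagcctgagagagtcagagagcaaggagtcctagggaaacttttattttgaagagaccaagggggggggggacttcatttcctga
Pdgfd, chr9:6168236-6168485: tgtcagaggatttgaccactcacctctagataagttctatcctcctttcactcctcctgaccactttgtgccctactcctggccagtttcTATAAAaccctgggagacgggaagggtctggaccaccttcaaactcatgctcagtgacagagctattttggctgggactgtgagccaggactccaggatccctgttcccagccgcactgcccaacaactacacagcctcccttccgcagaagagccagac

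The Pdgfra window held 1 E-box, which starts 182 bases before the RefSeq gene start, and the Pdgfd window held 1 TATAAA, which starts 160 bases before it. An E-box occurred in 66.2% and TATAAA in 12.4% of all 32851 promoter windows of this length, so the E-box in particular is a common match. The windows of Pdgfa, in 2 entries, and of Pdgfc held neither motif. Both Pdgfa windows lie inside the longer gene span given further below.

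The control library held 10197 barcodes and the treated library 7967, each with at least 500 UMIs, that is, unique molecules counted, and 48 barcodes occurred in both. After filters on genes, mitochondrial UMIs and doublets, 9522 and 7644 nuclei remained, with medians of 1012 and 1055 UMIs. Clustering without the 6 PDGF genes gave 22 clusters, of which 21 took a name from marker genes and fell into 10 cell types. Each is like the named type by its markers, and the suffix is left out below. Endothelial cells (ECs, 2806 control and 2508 PD-1 inhibitor nuclei), fibroblasts (2476 and 1970), cardiomyocytes (1282 and 1090), mononuclear phagocytes (MPs, 1256 and 883), mural cells (592 and 421) and mesothelial cells (480 and 462) were the larger ones. All markers of each of these 6 types stood over 2 times higher, as UMIs per 1000000 UMIs of all genes (CPM), in their own nuclei than in the other nuclei of both libraries. T cells (240 and 192), B cells (175 and 79), adipocytes (154 and 16) and glial cells (30 and 10) held few UMIs of the PDGF genes.

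Pdgfra was highest in fibroblasts and Pdgfrb in mural cells in both libraries. Among the larger cell types Pdgfb and Pdgfd were highest in ECs in control, whereas in the treated library Pdgfb was level between ECs and MPs and Pdgfd was highest in mesothelial cells. Pdgfc was highest in MPs, and Pdgfa had few UMIs in all of them. The treated library had lower Pdgfd levels in ECs and cardiomyocytes and a higher Pdgfc level in MPs. Both receptors were near their control levels in the cell types that led them. Of the 60 pairs of a gene and a cell type, 27 had at least 50 UMIs over both libraries, and 8 of these differed by 0.5 or more on the log2 scale, that is, at least 1.41-fold, which is called past the fold below. Of all genes with as many UMIs, 14.3% (fibroblasts) to 45.9% (adipocytes) were past the fold, depending on the cell type.

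**Figure D1:**
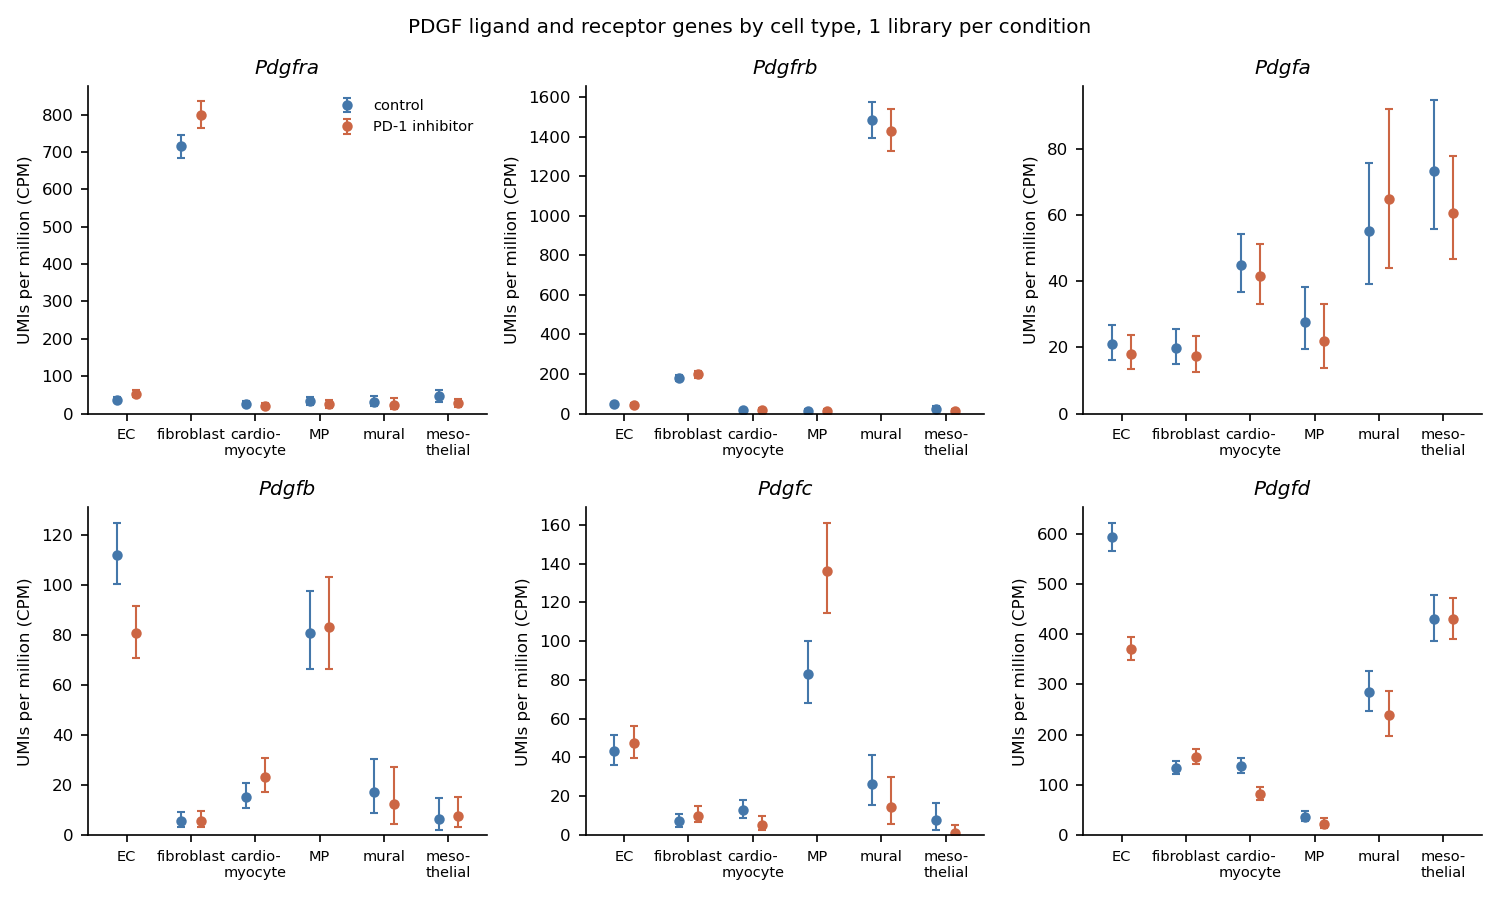
Counts per 1000000 UMIs (CPM) of each PDGF gene in the 6 larger cell types, with points for the control and the PD-1 inhibitor library and bars for exact Poisson 95% intervals, which cover counting error only. The vertical scales differ between panels. Pdgfra stands at 715 and 799 CPM in fibroblasts, Pdgfrb at 1485 and 1432 CPM in mural cells, and Pdgfd in ECs at 593 CPM in control and at 371 CPM under the inhibitor.

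Pdgfra, the α receptor gene, was found mainly in fibroblasts. Fibroblasts held 2137 of its 2436 UMIs in control (87.7%) and 1989 of 2271 in the treated library (87.6%). Its level there was 715 CPM in control and 799 CPM in the treated library, a log2 ratio of 0.16 (0.07 to 0.25). The 2 libraries thus differed beyond counting error, by a small amount. The next cell type in control was mesothelial cells at 45.5 CPM, a level 15.5-fold lower (log2 difference 3.95, 3.50 to 4.49). From there on the steps were small, and mesothelial cells, B cells, ECs, MPs, mural cells and cardiomyocytes did not differ from their neighbours in the control order beyond counting error. Only neighbours were compared, and the levels of these cell types ran from 45.5 CPM down to 26.8 CPM in cardiomyocytes.

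A Pdgfra UMI was present in 44.8% (42.9 to 46.8) of the control fibroblasts and 47.9% (45.6 to 50.1) of those of the treated library. With every nucleus thinned to 500 UMIs, the shares were 26.7% and 28.3%. In ECs, taken as the background for both receptors, 3.10% and 3.63% of nuclei had a Pdgfra UMI, at median depths of 895.5 and 949 UMIs against 1044 and 1088.5 UMIs in fibroblasts. The fibroblast shares were thus far above the background in both libraries.

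Pdgfra also differed among the 4 fibroblast clusters. The cluster led by Myoc and Cilp, 2 genes of secreted matrix proteins, had 834 CPM in control and 883 CPM in the treated library. The largest cluster, led by Rgs17 and Pcdh9, had 727 and 843 CPM, a log2 ratio of 0.22 (0.09 to 0.34). The cluster led by Nkain2 and Ism1 had 586 and 728 CPM. By far the lowest was the cluster led by Wif1 and Chad, with 152 and 165 CPM. The control level of the Myoc cluster was 5.36-fold that of the Wif1 cluster (log2 difference 2.42, 1.87 to 3.10).

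ECs had a low Pdgfra level that was past the fold, with 36.4 CPM in control and 53.4 CPM in the treated library (108 and 154 UMIs, log2 ratio 0.55, 0.19 to 0.92). The difference lay in the endocardial cluster, at 40.0 and 67.5 CPM (60 and 117 UMIs), while capillary ECs were at 37.5 and 40.1 CPM. Nuclei of the endocardial cluster with 3 or more Pdgfra UMIs numbered 2 in control, with 7 UMIs, and 10 in the treated library, with 53 UMIs and up to 12 in a nucleus. The share of endocardial nuclei with a UMI was 3.47% and 4.18%, so that a few nuclei carried most of the difference. The summed level of the 12 fibroblast markers in that cluster was 3857 CPM in control and 4856 CPM in the treated library, with 5 of 12 higher and none at 0. Their part in the Pdgfra value was not tested. The endothelial ratio fell under the fold with doublets kept (0.25), as an average over nuclei (0.47) and with each cluster given the same weight in both libraries (0.498). Among mesothelial cells, Pdgfra stood at 45.5 and 27.9 CPM (36 and 29 UMIs, log2 ratio -0.70, -1.46 to 0.04), but the ratio was -0.45 as an average over nuclei, under the fold, and after thinning to 500 UMIs the direction turned, at 0.45.

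Pdgfrb, the β receptor gene, was highest in mural cells, the pericytes and smooth muscle cells that wrap vessels. Mural cells held 1023 UMIs in control and 685 in the treated library, with 1485 and 1432 CPM. The log2 ratio was -0.05 (-0.19 to 0.09), within counting error. Fibroblasts followed with 177 and 198 CPM (530 and 493 UMIs, log2 ratio 0.16, -0.02 to 0.34). The mural level was 8.37-fold the fibroblast level in control and 7.22-fold in the treated library, and fibroblasts in turn were 3.83-fold and 4.49-fold above ECs. The order of mural cells, fibroblasts and ECs thus held beyond counting error in both libraries, and the cell types after ECs did not differ from their neighbours beyond it.

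A Pdgfrb UMI was seen in 64.7% (60.7 to 68.5) of control mural nuclei and 63.7% (58.9 to 68.3) of those of the treated library, or 44.1% and 48.0% after thinning. The shares in fibroblasts were 15.4% and 17.0%, and in ECs, the background, 3.88% and 3.99%. ECs were not the lowest cell type for Pdgfrb, since MPs had 1.43% and 1.36%. Within the mural cells the gene marked the pericytes, with 1814 CPM in control and 1705 CPM in the treated library (988 and 672 UMIs). Smooth muscle cells had 242 and 154 CPM (35 and 13 UMIs). The pericyte level was 7.38-fold the smooth muscle level in control (log2 difference 2.88, 2.42 to 3.43) and 10.7-fold in the treated library (3.41, 2.68 to 4.38).

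Among fibroblasts Pdgfrb had another order than Pdgfra. The Wif1 cluster, lowest for Pdgfra, was highest for Pdgfrb, with 311 CPM in control and 380 CPM in the treated library. The Rgs17 cluster had 178 and 183 CPM, and the control level of the Wif1 cluster was 1.76-fold this one (log2 difference 0.82, 0.34 to 1.24). In ECs, the low Pdgfrb UMIs were unevenly spread. Endocardial cells had 70.7 and 62.3 CPM against 24.6 and 18.5 CPM in capillary ECs, a control difference of 1.50 on the log2 scale (0.86 to 2.24), so the UMIs were not spread evenly over ECs.

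The receptors were counted together in nuclei. Of 382 control fibroblast nuclei with a Pdgfrb UMI, 191 also had a Pdgfra UMI, or 50% (44.9 to 55.1), against 43.9% (41.7 to 46.0) of those without one. In the treated library the shares were 52.2% (46.7 to 57.7) and 47.0% (44.5 to 49.4). Nuclei with a Pdgfrb UMI were also deeper, with medians of 1277.5 against 1008 UMIs in control and 1422 against 1047 in the treated library. The intervals overlapped in both libraries, which does not settle whether the shares differ, since no interval was made for their difference. The part of depth was not tested. In mural cells a Pdgfra UMI was rare, in 2.09% of 383 control nuclei with a Pdgfrb UMI and 2.61% of 268 such nuclei of the treated library, no more often than in the EC background. The unnamed cluster of 44 proliferating nuclei held 31 and 3 Pdgfrb UMIs and 7 and 11 Pdgfra UMIs.

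Pdgfb, the gene of the B chain, led in ECs among the larger cell types in control and lay level with MPs in the treated library. ECs held 333 UMIs in control and 233 in the treated library, with 112 and 80.7 CPM (log2 ratio -0.47, -0.72 to -0.23). This difference was beyond counting error but just short of the fold, which it passed after thinning (-0.53). MPs had 80.8 and 83.5 CPM (108 and 84 UMIs, log2 ratio 0.05, -0.38 to 0.47). Fibroblasts, taken as the background, had 5.69 and 5.63 CPM, with a UMI in 0.565% and 0.508% of nuclei. In ECs the share of nuclei with a Pdgfb UMI was 8.73% (7.71 to 9.84) in control and 6.98% (6.01 to 8.05) in the treated library, and 5.35% and 3.67% after thinning.

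Most of the endothelial Pdgfb came from capillary cells. Capillary ECs had 269 CPM in control and 230 CPM in the treated library (251 and 149 UMIs), a log2 ratio of -0.22 (-0.53 to 0.07). Arterial ECs had 145 and 209 CPM on 20 and 30 UMIs (log2 ratio 0.51, -0.34 to 1.42). Endocardial cells had 32.7 and 24.8 CPM (49 and 43 UMIs), and the control level of capillary ECs was 8.16-fold theirs (log2 difference 3.03, 2.59 to 3.51). None of these 3 clusters differed between the libraries beyond counting error. Endocardial nuclei made up 49.3% of the control ECs and 59.1% of those of the treated library, and capillary nuclei 35.1% and 27.5%. With each cluster given the same weight in both libraries, the endothelial log2 ratio of Pdgfb was -0.18.

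Cardiomyocytes had a low Pdgfb level, past the fold, with 15.2 CPM in control and 23.2 CPM in the treated library (37 and 47 UMIs, log2 ratio 0.60, -0.05 to 1.27). The interval held 0, and the direction turned to -0.29 with nuclei of at most 5% mitochondrial UMIs. The ratio was also under the fold with at least 500 genes per nucleus (0.35) and with equal cluster weights (0.31). The 12 EC markers together stood at 637 CPM in control and 864 CPM in the treated cardiomyocytes, with 11 of 12 higher and none at 0, and their part in the Pdgfb value was not tested. Glial cells held 7 Pdgfb UMIs in 30 control nuclei and 3 in 10 nuclei of the treated library, which is 216 and 211 CPM on very few counts.

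Pdgfd, the gene of the D chain, the other ligand of the β receptor, had the most UMIs of the ligand genes. Among the ligand genes it also had the narrowest interval for a difference between the libraries, in ECs. In ECs it had 1760 UMIs in control and 1071 in the treated library, with 593 and 371 CPM, a log2 ratio of -0.68 (-0.79 to -0.57). A UMI was present in 26.2% (24.5 to 27.8) of control EC nuclei and in 20.9% (19.3 to 22.5) of those of the treated library. Thinned to 500 UMIs, the shares were 18.3% and 13.6%. T cells, the background for this gene, had 5.00% and 1.56%, with 20 and 3 UMIs at median depths of 848.5 and 880 UMIs.

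Among EC clusters, Pdgfd was highest in capillary and arterial ECs. Capillary ECs had 1321 CPM in control and 883 CPM in the treated library (1233 and 572 UMIs, log2 ratio -0.58, -0.73 to -0.44), with a UMI in 48.3% and 38.3% of nuclei. Arterial ECs had 1422 and 1142 CPM (196 and 164 UMIs, log2 ratio -0.31, -0.62 to -0.01), and lymphatic ECs had 174 and 97.0 CPM (46 and 20 UMIs, log2 ratio -0.83, -1.68 to -0.06). Endocardial cells, at 185 and 176 CPM (278 and 305 UMIs), were level between the libraries, with a log2 ratio of -0.08 (-0.31 to 0.16). The control level of capillary ECs was 7.12-fold the endocardial level (log2 difference 2.83, 2.64 to 3.03). With equal cluster weights the endothelial ratio was -0.44, under the fold. The part of the cluster shares given above in the value was not tested.

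Cardiomyocytes likewise had a lower Pdgfd level under the inhibitor, with 138 CPM in control and 82.3 CPM in the treated library (335 and 167 UMIs, log2 ratio -0.74, -1.02 to -0.47). Both ventricular clusters had this direction. The cluster led by Acta1 and Xirp2, which encode an actin and an actin-binding repeat protein, had 95.8 and 49.1 CPM (log2 ratio -0.96, -1.55 to -0.40). The Acta1 cluster took 38.8% of control and 47.2% of PD-1 inhibitor cardiomyocyte nuclei. After thinning, the cardiomyocyte ratio was -0.22, outside the interval given and under the fold. As an average over nuclei instead of a sum of UMIs it was -0.43, also under the fold.

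Mesothelial cells, the lining of the heart surface, held as much Pdgfd in either library, at 430 CPM in both (340 and 446 UMIs, log2 ratio -0.00, -0.21 to 0.21). Their share of nuclei with a UMI was 32.1% in control and 39.8% in the treated library, at median depths of 1297.5 and 1724 UMIs, but it was 17.7% in both after thinning. In control, ECs lay above mesothelial cells (593 against 430 CPM), and in the treated library mesothelial cells lay 1.16-fold above ECs (log2 difference 0.21, 0.05 to 0.37). Averaged over nuclei, that second difference was 0.01.

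Mural cells had 284 and 238 CPM of Pdgfd (196 and 114 UMIs, log2 ratio -0.25, -0.60 to 0.08), and nearly all of it was in smooth muscle cells. Smooth muscle cells had 1226 CPM in control and 1187 CPM in the treated library (177 and 100 UMIs), against 34.9 and 35.5 CPM in pericytes (19 and 14 UMIs). The control difference was 34.3-fold (log2 difference 5.10, 4.45 to 5.90). Pericytes, which led for the receptor gene Pdgfrb, thus had little Pdgfd. T cells, the background, stood at 83.7 CPM in control and 15.5 CPM in the treated library, on 20 and 3 UMIs. Neither mural cluster differed between the libraries beyond counting error. As an average over nuclei the mural log2 ratio was -0.90 and after thinning -0.98, both past the fold and outside the interval given. The thinned ratio rested on 76 and 27 UMIs. Of the 196 and 114 UMIs before thinning, 140 and 89 lay in 22 and 10 nuclei with 3 or more.

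In fibroblasts Pdgfd stood at 134 CPM in control and, slightly higher, at 156 CPM in the treated library (400 and 387 UMIs, log2 ratio 0.22, 0.01 to 0.42). The fibroblast clusters, however, went in different directions. The Nkain2 cluster had 333 CPM in control and 648 CPM in the treated library (101 and 145 UMIs, log2 ratio 0.96, 0.59 to 1.34), with a UMI in 23.3% and 36.7% of its 232 and 150 nuclei, or 11.6% and 18% after thinning. The Rgs17 cluster had 126 and 157 CPM (0.32, 0.02 to 0.62). The Myoc cluster had 82.8 and 57.3 CPM (76 and 57 UMIs, -0.53, -1.05 to -0.02). The Nkain2 cluster was the highest fibroblast cluster for Pdgfd in both libraries, 4.01-fold above the Myoc cluster in control and 11.2-fold in the treated library.

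**Figure D2:**
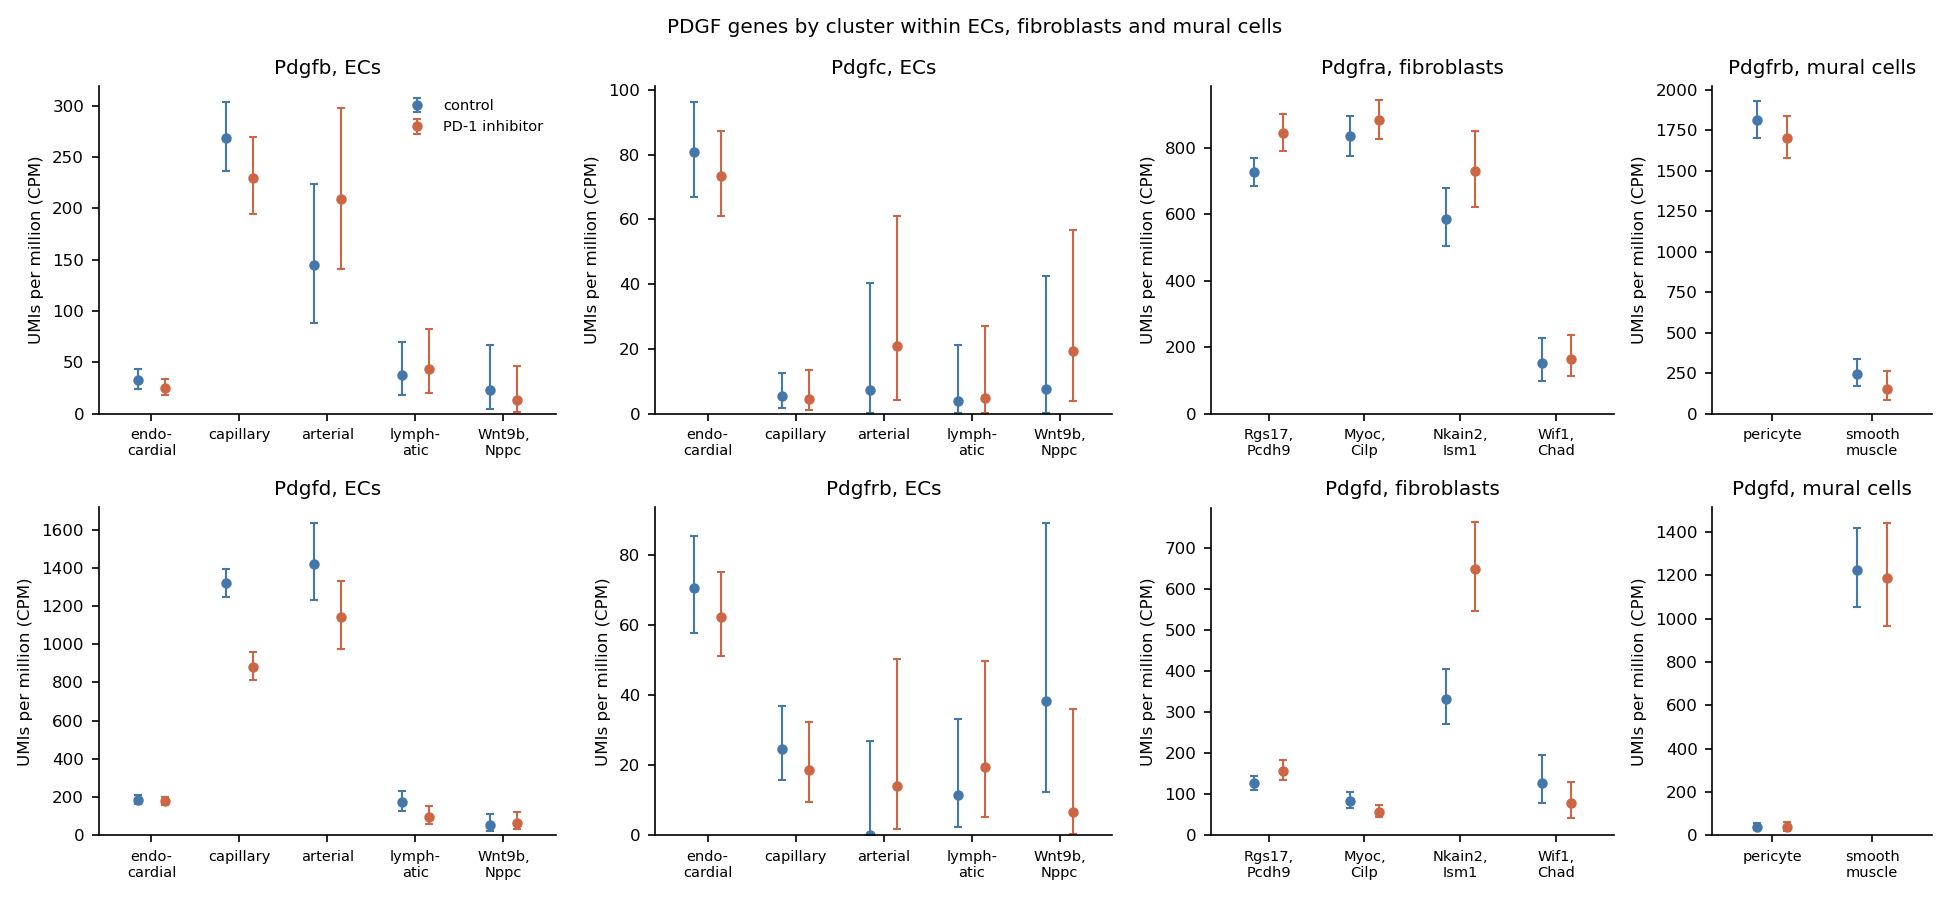
Counts per 1000000 UMIs (CPM) by cluster within ECs, fibroblasts and mural cells, with the control and PD-1 inhibitor libraries as points and exact Poisson 95% intervals as bars. Clusters without a subtype name carry their leading genes, and scales differ between panels. Among EC clusters, Pdgfb and Pdgfd are highest in capillary and arterial cells and Pdgfc in endocardial cells. Pdgfd in the Nkain2 cluster stands at 333 and 648 CPM. The mural panels show Pdgfrb highest in pericytes and Pdgfd highest in smooth muscle cells.

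Pdgfc, the gene of the C chain, a ligand of the α receptor, was highest in MPs. In control, MPs did not differ from adipocytes beyond counting error (log2 difference 0.13, -0.47 to 0.82), and after thinning that difference was -0.62. In the treated library MPs lay 2.87-fold above ECs, the next cell type (1.52, 1.17 to 1.87). Control MPs had 83.1 CPM and those of the treated library 136 CPM (111 and 137 UMIs, log2 ratio 0.71, 0.34 to 1.09). A UMI was present in 5.33% (4.16 to 6.73) and 9.63% (7.76 to 11.8) of MP nuclei, and in 3.03% and 5.89% after thinning, with medians of 902 and 966 UMIs. T cells as the background had a Pdgfc UMI in 0.417% of control nuclei and in 0 of 192 nuclei of the treated library, which allows a share of up to 1.56%. The macrophage cluster had 94.8 and 155 CPM (108 and 134 UMIs, log2 ratio 0.70, 0.33 to 1.09). The MP cluster led by Cd209a, a lectin gene, had 15.2 and 21.4 CPM, and the macrophage level was 5.36-fold this one in control (log2 difference 2.42, 1.05 to 4.94). The 14 MP markers together stood at 14089 CPM in control MPs and 18475 CPM in those of the treated library, with 12 of 14 higher, and their part in the Pdgfc value was not tested.

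ECs had 43.5 and 47.5 CPM of Pdgfc (129 and 137 UMIs, log2 ratio 0.13, -0.23 to 0.48). Endocardial cells held 121 of the 129 control UMIs and 127 of the 137 in the treated library, at 80.7 and 73.2 CPM. Capillary ECs had 5.36 and 4.63 CPM on 5 and 3 UMIs. Among EC clusters, Pdgfb and Pdgfd were thus highest in capillary and arterial cells and Pdgfc in endocardial cells. Endocardial cells still had more Pdgfd, at 185 and 176 CPM, than Pdgfc. Adipocytes had 27 Pdgfc UMIs in 154 control nuclei (74.8 CPM) and 0 in 16 nuclei of the treated library, where 3 UMIs would be 53.5 CPM.

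Pdgfa, the gene of the A chain, had few UMIs, 375 in control and 303 in the treated library, and was not past the fold in any of the 6 cell types with at least 50 of them. Under other settings it was past the fold in 3 of these, with at least 500 genes per nucleus in ECs (-0.58) and MPs (-0.75) and after thinning in fibroblasts (-0.70). Mesothelial cells had 73.4 and 60.7 CPM (58 and 63 UMIs, log2 ratio -0.27, -0.81 to 0.27). Mural cells had 55.2 and 64.8 CPM (0.24, -0.50 to 0.96), and cardiomyocytes had 44.9 and 41.4 CPM (109 and 84 UMIs, -0.11, -0.54 to 0.31). In the control order each of these 3 was compared only with the next. Neither step among them was beyond counting error, whereas cardiomyocytes lay above MPs at 27.7 CPM. In the treated library mesothelial cells lay above cardiomyocytes beyond counting error (log2 difference 0.55, 0.06 to 1.04). Glial cells stood higher, at 216 and 211 CPM, on 7 and 3 UMIs. Smooth muscle cells had 187 and 202 CPM on 27 and 17 UMIs, and the Wif1 fibroblast cluster had 165 and 110 CPM on 26 and 20 UMIs. The share of mesothelial nuclei with a Pdgfa UMI was 7.92% and 10.2%, falling to 2.92% and 2.60% after thinning, against 0.417% and 1.56% of T cells, or 0.417% and 0.521% after thinning.

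**Figure D3:**
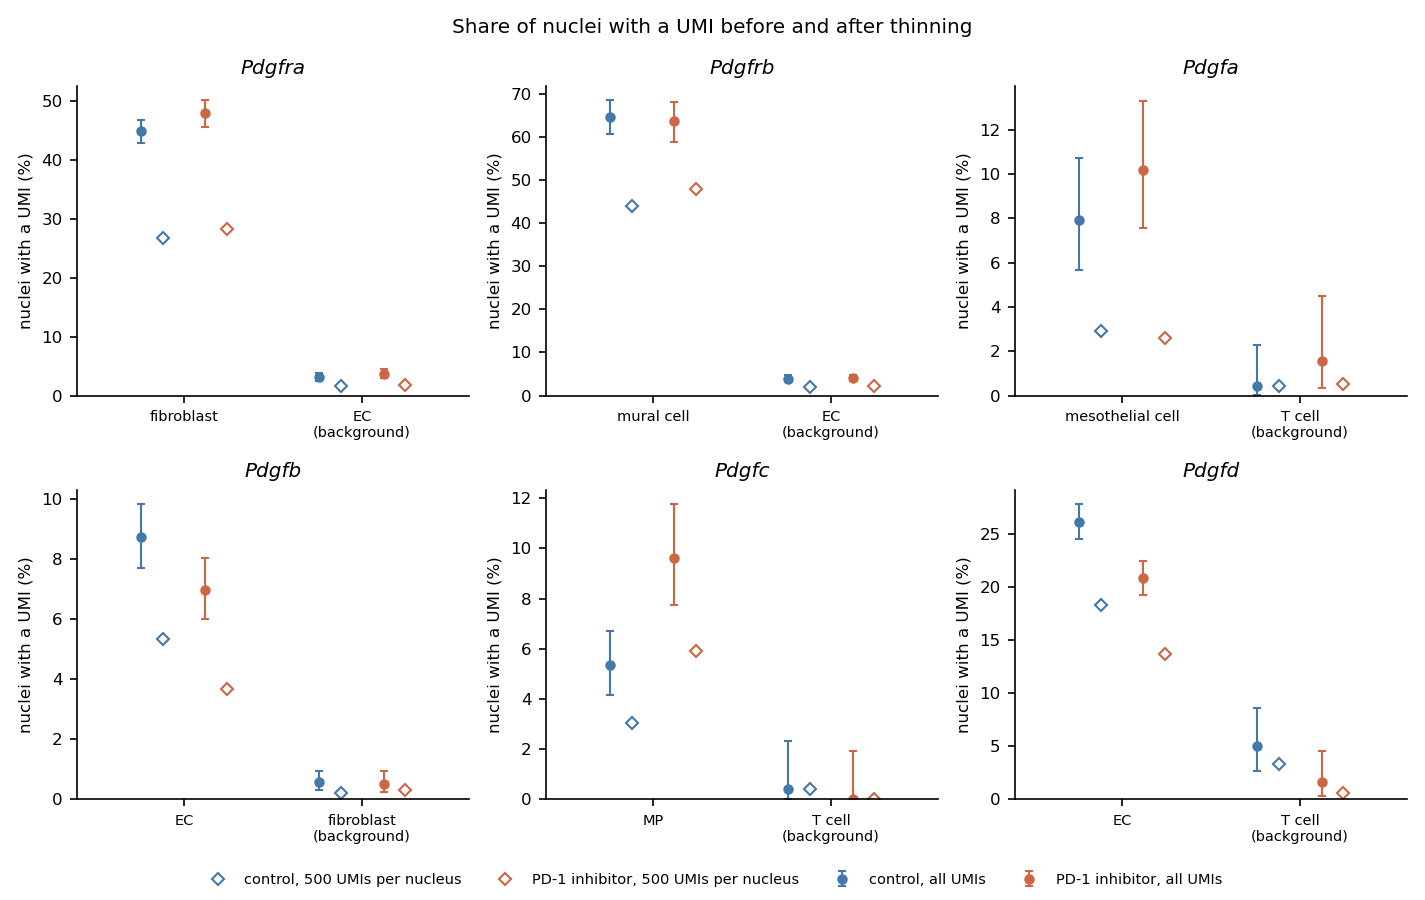
Percent of nuclei with a UMI of each PDGF gene in its leading larger cell type and in a cell type taken as background, for the control and PD-1 inhibitor libraries. Filled points with exact Clopper-Pearson 95% intervals use all UMIs and open diamonds use 500 UMIs per nucleus. Pdgfrb reaches 64.7% and 63.7% of mural nuclei, and Pdgfc in MPs stands at 5.33% and 9.63%.

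The number of PDGF genes past the fold was read against all genes with at least 50 UMIs in the same cell type. In ECs 15.6% of 10697 genes were past the fold, and 2 of 6 PDGF genes were, Pdgfd lower and Pdgfra higher. In fibroblasts 14.3% of genes and 0 of 4 PDGF genes were. The share was 23.4% in cardiomyocytes, with 2 of 5 PDGF genes, Pdgfd lower and Pdgfb higher, and 19.8% in MPs, with 2 of 5, Pdgfc higher and Pdgfd lower (36.7 and 22.9 CPM, 49 and 23 UMIs, log2 ratio -0.67, -1.46 to 0.06). Mural cells had 23.1% of genes and 0 of 3 PDGF genes past it, and mesothelial cells had 17.3% and 1 of 3, Pdgfra. Adipocytes, with 16 nuclei in the treated library, had 45.9% of genes past it, and the 1 PDGF gene with enough UMIs, Pdgfd, was among them (172 and 285 CPM, 62 and 16 UMIs, log2 ratio 0.77, -0.16 to 1.54). With so few PDGF genes per cell type, these counts do not set the system apart from other genes. The median log2 ratio of the PDGF genes was -0.14 in ECs, 0.16 in fibroblasts and -0.33 in MPs, beside 0.01, -0.00 and -0.03 for all genes.

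**Figure D4:**
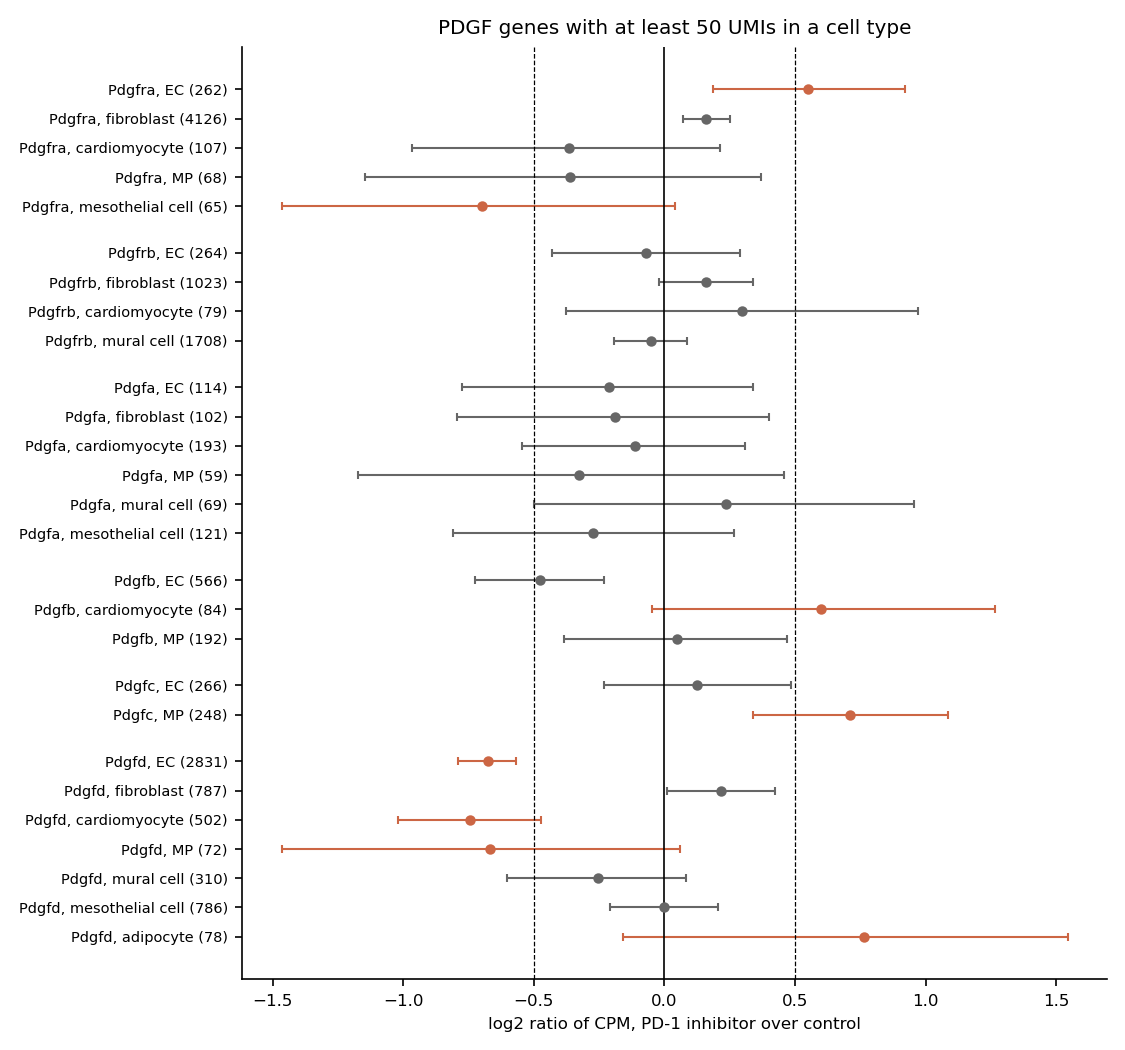
Log2 ratio of CPM, PD-1 inhibitor over control, for the 27 pairs of a PDGF gene and a cell type with at least 50 UMIs (number of UMIs in both libraries in parentheses), with exact 95% intervals for counting error. Dashed lines mark the fold of 0.5 and coloured points are past it. Pdgfd in ECs (-0.68) and in cardiomyocytes (-0.74) lies left of 0 and Pdgfc in MPs (0.71) right of it, while Pdgfra in fibroblasts (0.16) and Pdgfrb in mural cells (-0.05) stay near 0.

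Gene length moved with these ratios across all genes. Pdgfc and Pdgfd are long genes, spanning 178 kb and 210 kb, and fall among the longest 20% of genes in each cell type where they could be placed. The median log2 ratio of those genes was -0.17 in ECs, -0.17 in fibroblasts, -0.27 in cardiomyocytes and -0.20 in MPs. It was -0.20 in mural cells, -0.02 in mesothelial cells and -0.16 in adipocytes. Pdgfd lay below these medians in ECs (-0.68), cardiomyocytes (-0.74) and MPs (-0.67) and above them in fibroblasts (0.22) and adipocytes (0.77). In mural (-0.25) and mesothelial cells (-0.00) Pdgfd lay near them. Pdgfc lay above them in MPs (0.71) and ECs (0.13). The part of length in the values was not tested.

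Other genes of the pathway were taken from 4 lists with 46 genes in all, and 44 had at least 50 UMIs in ECs. Of these, 1 was higher past the fold and 4 were lower, beside the 15.6% of all genes given above, with a median log2 ratio of -0.12 beside 0.01 for all genes. The proteases that process PDGF chains had 1 of 5 lower in ECs, Pcsk6, a furin-like convertase, at 41.1 CPM in control and 17.7 CPM in the treated library (log2 ratio -1.21, -1.72 to -0.74). Among the effectors and adaptors, 2 of 23 were lower, the adaptor gene Nck2 (87.7 and 58.9 CPM, -0.57, -0.86 to -0.29) and Pik3cb, a catalytic PI3-kinase subunit gene (53.6 and 37.8 CPM, -0.50, -0.87 to -0.14). Of 11 negative regulators, the ubiquitin ligase gene Cblb was lower (83.6 and 48.2 CPM, -0.79, -1.11 to -0.49) and the phosphatase gene Acp1 was higher (12.1 and 26.7 CPM, 1.13, 0.55 to 1.75). None of the 5 co-receptor and ligand-binding genes was past the fold.

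Fibroblasts, which held most Pdgfra, had 2 of 44 pathway genes higher and 1 lower past the fold, beside 14.3% of all genes in either direction. Acp1 was again higher (9.70 and 24.5 CPM, log2 ratio 1.32, 0.68 to 2.03), as was Pik3cb (7.69 and 14.5 CPM, 0.90, 0.12 to 1.73). The lower gene was Plau, the urokinase gene, whose product can activate the D chain, at 16.4 and 8.44 CPM on 49 and 21 UMIs (-0.94, -1.77 to -0.19). Pik3cb thus differed in opposite directions in ECs and fibroblasts, on 159 and 109 UMIs in ECs and 23 and 36 in fibroblasts. In ECs it only just passed the fold (-0.503). The list median in fibroblasts was -0.09 beside -0.00 for all genes.

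Mural cells had 1 of 37 pathway genes higher and 5 lower, beside 23.1% of all genes in either direction. Gab1, a docking protein gene, had 299 CPM in control and 199 CPM in the treated library (log2 ratio -0.59, -0.96 to -0.23), and Sos1, a Ras activator gene, had 103 and 54.3 CPM (-0.91, -1.63 to -0.26). The other genes past the fold there were Crkl, Ptpn2 and Thbs1, lower, and Pik3r2, higher, each with an interval that held 0. In cardiomyocytes 6 of 37 were higher and 2 lower, a share near the 23.4% of all genes, so that the count does not set the pathway apart. The lower genes were Stat3, a transcription factor gene, with 179 and 102 CPM (434 and 207 UMIs, -0.81, -1.05 to -0.57), and the adaptor gene Crkl with 37.9 and 21.2 CPM (-0.83, -1.39 to -0.30). Higher were the Ras genes Hras (19.3 and 34.5 CPM, 0.83, 0.28 to 1.40) and Nras (28.0 and 40.4 CPM, 0.53, 0.05 to 1.02), Spry1, an inhibitor of receptor signalling (14.0 and 24.2 CPM, 0.78, 0.13 to 1.46), and Plat, Pik3r2 and Pik3cb, whose intervals held 0. MPs had 0 of 32 pathway genes higher and 1 lower, and mesothelial cells had 2 of 38 higher and 3 lower, beside 19.8% and 17.3% of all genes.

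Genes with a profile like that of each member were sought over the 20 named clusters with at least 50 nuclei, among 11481 genes, by Pearson r of log2(CPM + 10) with both libraries summed. The points share libraries and clusters, so r is given as a description. Pdgfra was most like Gsn, the gelsolin gene (r = 0.948), Htra3 (0.947) and Adamtsl2 (0.945). Pdgfrb was most like Heyl, a Notch target gene (0.911), Aspn (0.897) and Gucy1a2, a guanylate cyclase subunit gene (0.897). Among the ligands, Pdgfd was most like Pwwp2b (0.843), Plcb4 (0.790) and Lims2 (0.741), and Pdgfb was most like Gch1 (0.836), Timeless (0.805) and Rasgrf2 (0.804). The best values were lower for Pdgfc, with Slc16a7 (0.750), H2bc21 (0.691) and Ankrd52 (0.667), and for Pdgfa, with Npnt (0.733), Dstn (0.730) and Eef2k (0.729).

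In GENCODE vM21 (GRCm38), the build that the labels name, all 6 are protein-coding genes. Pdgfra lies at chr5:75152292-75198215 and Pdgfa at chr5:138976014-138997370 on the minus strand. Pdgfc lies at chr3:81036416-81214040, Pdgfd at chr9:6168584-6378850 and Pdgfb at chr15:79995874-80014977 on the minus strand. Pdgfrb lies at chr18:61045150-61085061. The GENCODE starts of Pdgfra and Pdgfd lie downstream of the RefSeq starts from which the promoter windows above were counted. The Pdgfa windows, chr5:138994282-138994531 and chr5:138994945-138995194, lie inside the GENCODE span of Pdgfa. Whether the counting used strand is not given in the sources used here, so UMIs of a gene and an overlapping antisense gene cannot be told apart with certainty. Pdgfa overlaps 6330403L08Rik, with 49 and 47 UMIs, and Pdgfb overlaps Gm41361, with 22 and 24 UMIs. The overlapping genes of Pdgfc, Pdgfd and Pdgfra that are in the files held 5 or fewer UMIs in either library.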

How the data were processed

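snRNA-seq was analysed for 1 control and 1 PD-1 inhibitor library of mouse heart, made by the authors with the GEXSCOPE kit. The authors deposited, for each library, UMI counts as whole numbers for every gene and barcode, not normalized. The labels name the builds GRCm38 and mm10. The aligner and the counting software are not given in the sources used here. The total was 13177525 UMIs in control and 10875248 in the PD-1 inhibitor library.

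Barcodes needed 200 genes or more, and no more than 20% of their UMIs could be mitochondrial. Doublets called with Scrublet in scanpy 1.11.5 were removed, 592 (5.85%) in control and 308 (3.87%) in the PD-1 inhibitor library. Counts were scaled to 10000 per nucleus, logged and standardized. The 2000 most variable genes without the 6 PDGF genes gave 30 principal components, and 15 neighbours were clustered with leidenalg 0.10.2 at resolution 1. A cluster took a name when 3 or more markers of a type were detected, each in 5% or more of the cluster and at over 2 times the level elsewhere, and stayed unnamed when its 10 leading genes held more markers of another type. One proliferating cluster of 44 nuclei was left unnamed.

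UMIs were summed by cell type and library. Levels are UMIs per 1000000 (CPM) with exact Poisson intervals, shares have exact Clopper-Pearson intervals, and log2 ratios, with 0.5 UMI added to each sum, have exact binomial intervals conditional on both sums. Nuclei of 1 library are not replicates, so no p-value was computed. The ratio code was checked on simulated data. Thinning drew 500 UMIs per nucleus, which left out 0 nuclei. Where no UMI was found, the share or level of 3 UMIs stands as the limit. Gene spans came from GENCODE vM21, in which 32445 of 32589 identifiers were found.

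Named were the 6 members, pathway genes past the fold in ECs, fibroblasts, mural cells or cardiomyocytes, and the 3 genes most like each member. Cluster-leading genes are named to tell clusters apart, and clusters were singled out after their values were seen. The members, markers and pathway lists were chosen with earlier results of these data known. Alternatives changed the nucleus filters, doublets, clustering, scaling, summary, depth and cluster weights. The separate values of 1 ventricular cardiomyocyte cluster are not reported here.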

Additional observations from a re-analysis of the deposited data

Results flagged for a closer look

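Pdgfd differed between the libraries in opposite directions in different cell types, each beyond its own counting interval. Its log2 ratio, PD-1 inhibitor over control, was -0.68 in ECs and -0.74 in cardiomyocytes, but 0.22 in fibroblasts. After thinning to 500 UMIs the cardiomyocyte ratio was -0.22, and with equal cluster weights the endothelial ratio was -0.44. The fibroblast value combined clusters that went in different directions, from 0.96 in the Nkain2 cluster to -0.53 in the Myoc cluster. The Myoc cluster (82.8 and 57.3 CPM) and treated cardiomyocytes (82.3 CPM) were no higher than control T cells, the background, at 83.7 CPM. T cells stood at 15.5 CPM in the treated library, on 20 and 3 UMIs. With 1 library per condition, the difference between the cell types was not tested.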

How the results depend on the processing

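The 11 alternatives to the main processing left the log2 ratio of each member in its leading cell type within its counting interval in 63 of 66 cases. The exceptions were the endothelial ratios with each cluster given the same weight in both libraries, -0.18 for Pdgfb and -0.44 for Pdgfd, and the mural ratio of Pdgfrb after thinning to 500 UMIs, at 0.10. Over all alternatives Pdgfd in ECs ranged from -0.75 to -0.44, Pdgfb in ECs from -0.53 to -0.18, Pdgfc in MPs from 0.62 to 0.82 and Pdgfra in fibroblasts from 0.12 to 0.18. Of the 8 pairs of a gene and a cell type past the fold, 3 stayed past it under every alternative run, Pdgfc and Pdgfd in MPs and Pdgfd in adipocytes. The counting intervals of both Pdgfd ratios held 0, and in adipocytes the thinned ratio rested on 8 and 1 UMIs. The other 5 pairs fell under the fold in at least 1 alternative. Among these 5 the direction turned for Pdgfb in cardiomyocytes with at most 5% mitochondrial UMIs (-0.29) and for Pdgfra in mesothelial cells after thinning (0.45), and the cause was not tested. Of the 19 pairs under the fold, 11 turned direction and 8 passed the fold under at least 1 alternative, so the sign of these small ratios is not stable. A further 28 values lay beyond their interval or moved by over 1.5 times, among them the 12 thinned shares. With a minimum of 200 UMIs in place of 50, the share of genes past the fold was 9.48% in place of 15.6% in ECs, 7.59% in place of 14.3% in fibroblasts, 18.6% in place of 23.4% in cardiomyocytes, 11.6% in place of 19.8% in MPs, 12.6% in place of 23.1% in mural cells and 4.47% in place of 17.3% in mesothelial cells. No paired analysis was possible because each condition is 1 library, and for the same reason no library could be left out. Depth limits Pdgfa and all values in T, B, glial and adipocyte nuclei.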
